A study of Mus musculus with 9 samples.

Results

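The TGF-beta and activin branch of the TGF-beta superfamily was followed in mouse heart RNA through 10 genes picked by symbol, all of which were among the 54532 genes of the count table and all of which passed the filter on low counts. They were the ligand genes Tgfb1, Tgfb2, Tgfb3, Inhba and Inhbb, the matrix protein gene Ltbp2, the receptor genes Tgfbr1 and Tgfbr2, and the inhibitor genes Bambi and Smad7. The hearts came from male C57BL/6J mice, wild type, that were 8 to 10 weeks old. In the 3 sham libraries the chest was opened and a suture was placed around the left anterior descending coronary artery without being tied, and saline was given. In the 3 MIRI libraries (myocardial ischemia-reperfusion injury) the artery was tied for 30 min and released for 24 h, with saline. The 3 GXNI libraries had the same ligation and reperfusion and received Guanxinning injection, a preparation of Danshen and Chuanxiong, at 9 mL/kg. By the account of the study, saline or drug went into the tail vein within 10 min of ischemia in every group, although sham hearts had no ligation. No group received the drug without ligation, so its effect on an uninjured heart was not measured.

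TGF-beta proteins are secreted in a latent form that is bound to matrix through latent TGF-beta binding proteins and must be released before they can signal. Activins are dimers of the beta subunits that Inhba and Inhbb encode. Both kinds of ligand bring type II and type I receptors together, which phosphorylate Smad2 and Smad3, and in the injured heart this branch is best known for its part in fibroblast activation, matrix deposition and the ending of inflammation.

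The libraries held between 17119454 and 22811295 counts, so that 3 counts corresponded to between 0.132 and 0.175 CPM (counts scaled by the library total and its TMM factor). The samples are labelled as cardiomyocytes, yet endothelial, fibroblast and macrophage markers were present in every library, as in whole heart tissue. A lower level in such tissue can come from fewer cells of a type or from less RNA per cell, and these cannot be told apart. Over all genes, each of the 6 ligated libraries lay nearest to a library of another label by Spearman correlation of log2 CPM. MIRI 1 and MIRI 3 were nearest to GXNI 3 (rho 0.986 and 0.987), GXNI 3 to MIRI 3 (0.987), MIRI 2 to GXNI 1 (0.982), GXNI 1 to sham 1 (0.984) and GXNI 2 to MIRI 1 (0.980). On the first principal component, which held 64.8% of the variance, MIRI 2 scored -43.9 beside scores of 61.6 and 83.6 for the other MIRI libraries, and GXNI 3 scored 93.9 beside -43.6 and 18.6 for the other GXNI libraries. The summed CPM of 8 neutrophil markers was 26.8 in MIRI 2, below the sham range of 29.0 to 55.8, and 680 in GXNI 3, near the 716 and 644 of MIRI 1 and MIRI 3. The sham libraries scored -60.1 to -52.2 on the first principal component, so GXNI 1 lay about as near to them as MIRI 2. Its neutrophil marker sum, 48.6 CPM, was within the sham range. On both measures MIRI 2 was the library farthest from the others of its label. GXNI 1 and GXNI 3 lay at opposite ends of theirs, with GXNI 2 between them at 18.6 and 219 CPM. These values do not settle which of GXNI 1 and GXNI 3 stands apart. The labels of MIRI 2 and GXNI 3 were treated as in doubt. The comparison that does not depend on whether they are MIRI or GXNI, all 6 ligated hearts against the 3 sham hearts, is given first. It does rest on all 6 having been ligated, and MIRI 2 and GXNI 1 were the ligated libraries nearest to sham on both measures. Every comparison is also given without MIRI 2 and GXNI 3. That choice was made from the overall profiles with earlier results known, and a larger difference after it is no independent evidence.

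Levels between genes were compared as CPM per kb of exon. In sham hearts the order ran from the receptor Tgfbr2 at 11.4 ± 2.18 (SD, n = 3) through Smad7 at 5.50 ± 0.820, Tgfb1 at 5.06 ± 0.840, Tgfb3 at 3.58 ± 0.471, Tgfbr1 at 3.49 ± 0.247, Bambi at 2.53 ± 0.792 and Tgfb2 at 1.36 ± 0.415 to Inhbb at 0.786 ± 0.286, Ltbp2 at 0.426 ± 0.120 and Inhba at 0.208 ± 0.146. Tgfbr2 stood clear of Smad7, Tgfb1 of Tgfb3, Tgfbr1 of Bambi and Inhbb of Ltbp2, while the ranges of the other neighbours overlapped. In the 6 ligated hearts Inhbb had the highest mean, 18.4 ± 20.5 CPM per kb, but its libraries ran from 1.55 to 45.0 and overlapped those of Tgfbr2, at 11.9 ± 1.54. No neighbours in the ligated order were apart.

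**Figure D1:**
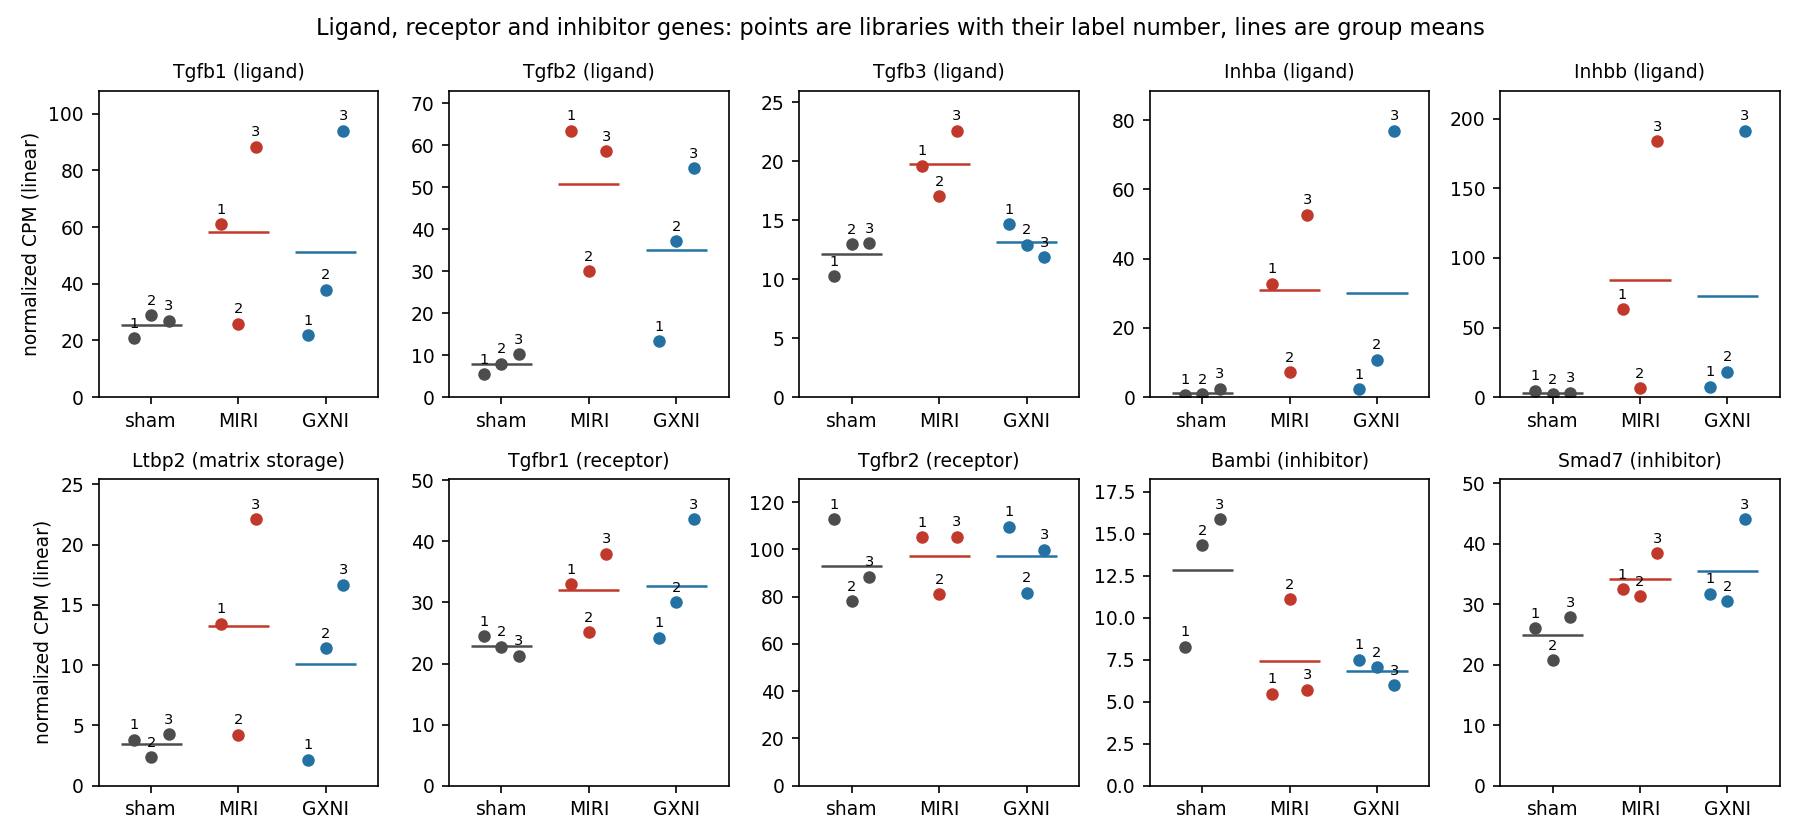
Normalized CPM of the 10 genes on linear axes that start at 0, one point per library with its label number and a line at the mean of each group of 3. Inhba and Inhbb were near 0 in sham hearts and highest in MIRI 1, MIRI 3 and GXNI 3, Tgfb2 was above the sham range in all 6 ligated hearts, and Tgfbr2 was at 78.1 to 113 CPM throughout.

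Of the 10 genes, 3 were called higher and 1 lower in all ligated hearts against sham, where a gene was called when the quasi-likelihood test of edgeR gave a p, before adjustment, no higher than 0.01 and the change was 1.5-fold or more. Over all 15207 genes tested, 5.52% were called higher and 2.85% lower. The higher genes were Tgfb2, Inhba and Inhbb, and the lower gene was Bambi. The median log2 fold change was 0.803 over the 10 genes and 0.00765 over all genes tested. None of the 10 had a Benjamini-Hochberg adjusted p of 0.05 or less in edgeR, and 8 had an unadjusted p under 0.05, beside 29.5% of all genes. DESeq2 called 4 higher and 1 lower, beside 5.18% and 2.31% of the 29344 genes with any count. It gave 5 of the 10 an adjusted p of 0.05 or less, beside 7.40% of those genes. The DESeq2 shares include genes with very few counts, so they are not comparable with the shares of edgeR. Without MIRI 2 and GXNI 3, edgeR again called 3 higher and 1 lower, with 6.60% and 3.24% of all genes called in those directions.

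The promoter sequences of the ligand genes that were called, with that of Tgfb1 for contrast since it was not called, are shown so that these genes can be compared at their starts. Each runs 5′ to 3′ on the strand of the gene over the 250 bases before the annotated start, from RefSeq on GRCm38.p6, and capitals mark matches on either strand to a GC box, a TATA box or an E-box. They lie at chr7:25686752-25687001 on the forward strand (Tgfb1), chr1:186705990-186706239 on the reverse strand (Tgfb2), chr13:16011601-16011850 on the forward strand (Inhba) and chr1:119422249-119422498 on the reverse strand (Inhbb).
Tgfb1: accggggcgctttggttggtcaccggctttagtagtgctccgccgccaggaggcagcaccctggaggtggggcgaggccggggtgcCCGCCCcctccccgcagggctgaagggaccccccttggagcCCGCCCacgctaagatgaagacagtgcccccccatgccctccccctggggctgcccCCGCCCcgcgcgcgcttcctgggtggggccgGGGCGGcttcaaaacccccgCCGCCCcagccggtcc
Tgfb2: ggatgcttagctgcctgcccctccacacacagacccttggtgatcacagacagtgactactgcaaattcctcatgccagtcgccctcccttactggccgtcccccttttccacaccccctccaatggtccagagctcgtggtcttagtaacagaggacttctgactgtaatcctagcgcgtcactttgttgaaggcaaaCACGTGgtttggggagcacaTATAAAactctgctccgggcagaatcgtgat
Inhba: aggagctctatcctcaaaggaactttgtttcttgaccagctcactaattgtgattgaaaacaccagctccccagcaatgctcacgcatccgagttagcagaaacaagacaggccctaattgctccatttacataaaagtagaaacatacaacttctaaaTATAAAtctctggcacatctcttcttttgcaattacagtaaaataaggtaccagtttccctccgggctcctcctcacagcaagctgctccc
Inhbb: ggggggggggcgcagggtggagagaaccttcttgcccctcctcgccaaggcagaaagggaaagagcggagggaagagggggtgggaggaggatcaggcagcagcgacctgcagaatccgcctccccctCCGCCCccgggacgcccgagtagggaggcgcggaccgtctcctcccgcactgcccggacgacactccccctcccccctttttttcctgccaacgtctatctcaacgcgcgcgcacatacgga
The GC content was 75.2% for Tgfb1, 68.0% for Inhbb, 53.6% for Tgfb2 and 43.2% for Inhba, beside a median of 52.4% over 32851 promoters of this length. The GC box was searched as GGGCGG, of which the Tgfb1 window held 5 and that of Inhbb 1, and which 32.7% of all promoters held. The windows of Tgfb2 and Inhba each held a TATA box, searched as TATAAA, which began 31 and 91 bases before the start and occurs in 12.4% of promoters, and that of Tgfb2 held an E-box, searched as CACGTG and found in 6.02%. None of these 4 windows held an AP-1 site with the letters TGACTCA, which 4.46% of promoters held. The same was true of the cAMP response element TGACGTCA, present in 1.55% of promoters, and of the palindromic Smad element GTCTAGAC, present in 0.167%. No motif of those searched was shared by all 3 called ligand genes. A match describes letters in the window and is no evidence of binding.

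Tgfb2 (ENSMUSG00000039239) encodes the TGF-beta isoform that is needed for valve and outflow tract formation in the embryonic heart. It maps to chr1:186622792-186705989 on the reverse strand (GRCm38, as for the genes that follow) and overlaps Gm26169 and Gm29491 on the other strand. Its CPM was 5.42, 7.97 and 10.2 in sham 1 to 3, 63.5, 29.98 and 58.7 in MIRI 1 to 3, and 13.4, 37.1 and 54.5 in GXNI 1 to 3. Every ligated heart lay above every sham heart, a separation that 8.40% of all genes showed in this direction, and GXNI 1 was the ligated heart nearest to sham. The group means were 7.87 ± 2.41 (SD, n = 3) in sham and 42.9 ± 19.4 (n = 6) in ligated hearts. The log2 fold change was 2.44 ± 0.48 (SE, adjusted p = 0.0707 in edgeR). This call was kept under each alternative fit with the same thresholds and with each of the 9 libraries left out in turn, with log2 fold changes of 2.23 to 2.68 in the latter.

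Inhba (ENSMUSG00000041324) encodes the beta A subunit of activin A. It maps to chr13:16011851-16031621 on the forward strand and overlaps B230303A05Rik and Gm48444 on the other strand. Its CPM was 0.698, 0.891 and 2.40 in sham 1 to 3, 32.8, 7.18 and 52.7 in MIRI 1 to 3, and 2.35, 10.8 and 77.0 in GXNI 1 to 3. GXNI 1 fell just within the sham range, while the other 5 ligated hearts were above it. The means were 1.33 ± 0.931 in sham (SD, n = 3) and 30.5 ± 29.6 in ligated hearts (n = 6), so that the spread among ligated hearts was about as large as their mean. The log2 fold change was 4.52 ± 1.19 (SE, adjusted p = 0.0875 in edgeR). The call was lost without sham 1 (log2 fold change 4.21) and without sham 2 (log2 fold change 4.29), and the log2 fold change was 5.25 without sham 3.

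Inhbb (ENSMUSG00000037035), the gene of the beta B subunit of activin B, maps to chr1:119415465-119422248 on the reverse strand with no overlapping gene. Its CPM was 4.67, 2.28 and 3.09 in sham 1 to 3, 63.1, 6.59 and 184 in MIRI 1 to 3, and 7.49, 18.3 and 192 in GXNI 1 to 3. All ligated hearts were above sham, with MIRI 2 and GXNI 1 close to it. The means were 3.35 ± 1.22 (SD, n = 3) and 78.5 ± 87.1 (n = 6), and the log2 fold change was 4.55 ± 1.32 (SE, adjusted p = 0.0905 in edgeR). The call was less firm than that of Tgfb2. It was lost without any one of the sham libraries (log2 fold change 4.33 to 4.86), without MIRI 1 (4.61), without MIRI 3 (4.11) and in the fit of all 9 libraries as 3 groups (4.55).

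The libraries with the most Inhba and Inhbb, which were MIRI 1, MIRI 3 and GXNI 3, were also those with the most neutrophil marker RNA, at 644 to 716 CPM over 8 markers beside 26.8 to 219 in the other ligated hearts. All 8 neutrophil markers were detected in every library. The same 3 libraries had the lowest cardiomyocyte marker sums, at 31740 to 33850 CPM beside 35260 to 53460 in the other ligated hearts and 50770 to 53280 in sham hearts. The sum of 8 monocyte and macrophage markers was 272 to 286 CPM in sham hearts and 184 to 347 CPM in ligated hearts. The 4 atrial markers were Myl7, Myl4, Sln and Nppa, of which Myl7 and Sln were at 0 in at least 1 library. Their summed CPM was 259 to 729 in MIRI 1, MIRI 3 and GXNI 3, 55.9 to 171 in the other ligated hearts and 40.3 to 84.0 in sham hearts. This sum does not show which of the 4 genes rose, and an amount of atrial tissue cannot be read from it. Fibroblast markers summed to 922 to 1315 CPM in the same 3 libraries, 1070 to 2315 CPM in the other ligated hearts and 1775 to 2021 CPM in sham hearts, and smooth muscle and pericyte markers to 329 to 411, 516 to 666 and 587 to 744 CPM in that order. Endothelial markers were at 849 to 1177 CPM in the 3 libraries, 669 to 722 CPM in the other ligated hearts and 622 to 869 CPM in sham hearts. The part of these cells in the activin values was not tested. The 5 genes whose log2 CPM followed Inhbb most closely over the 9 libraries were Mgat2 (r = 0.998), Ptpn1 (0.995), Sema3f (0.995), Samd4b (0.993) and Rdh10 (0.993). These correlations describe libraries that share the ligation and the overall profile, and many genes follow that profile.

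Tgfb1 (ENSMUSG00000002603) encodes the TGF-beta isoform carried by platelets and made by macrophages and fibroblasts. It maps to chr7:25687002-25705077 on the forward strand, with no overlapping gene. Its CPM was 20.8, 28.9 and 26.9 in sham 1 to 3, 61.1, 25.9 and 88.3 in MIRI 1 to 3, and 21.8, 37.9 and 94.1 in GXNI 1 to 3. MIRI 2 and GXNI 1 lay within the sham range and the other 4 ligated hearts above it. With a log2 fold change of 1.10 ± 0.48 (SE, adjusted p = 0.159 in edgeR) it was not called. Tgfb3 (ENSMUSG00000021253), known for its part in palate closure, maps to chr12:86056745-86079041 on the reverse strand, where it overlaps Ttll5, Gm37804 and Gm48008 on the other strand, so reads of those genes may be included if the counting ignored strand. Its CPM was 10.3, 13.0 and 13.1 in sham 1 to 3, 19.6, 17.04 and 22.6 in MIRI 1 to 3, and 14.7, 12.9 and 11.8 in GXNI 1 to 3. The MIRI libraries were above all others, while sham and GXNI overlapped, a pattern whose share over all genes is not reported here. In all ligated hearts against sham the log2 fold change was 0.44 ± 0.22 (SE, adjusted p = 0.198 in edgeR).

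The mix of TGF-beta ligand transcripts was then described as the share of each gene in the sum of Tgfb1, Tgfb2 and Tgfb3 counts per kb of exon, a ratio within a library that needs no scaling between libraries. The share of Tgfb1 was 50.7% ± 1.87 (SD, n = 3) in sham and 44.5% ± 9.10 (n = 6) in ligated hearts, a difference of -6.13 percentage points (two-sided exact permutation test over 84 splits, p = 0.333, adjusted over 2 shares p = 0.643, where the smallest p possible was 0.0119). The share of Tgfb2 was looked at after its values were seen and has no test. It was 11.6%, 12.6% and 16.1% in sham 1 to 3, 38.0%, 33.7% and 29.5% in MIRI 1 to 3, and 21.1%, 36.1% and 29.8% in GXNI 1 to 3, with no overlap between sham and ligated hearts. Tgfb3 held 35.0% to 37.5% in sham hearts and 11.1% to 39.5% in ligated hearts. Among the activin subunits, Inhba held 21.3% ± 12.5 (n = 3) of the sum of Inhba and Inhbb in sham hearts and 25.1% ± 9.56 (n = 6) in ligated hearts, a difference of 3.80 percentage points by the same exact permutation test (p = 0.643, adjusted p = 0.643). Left without sham 1 this difference was -2.31 points, so that its direction rested on that library.

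**Figure D2:**
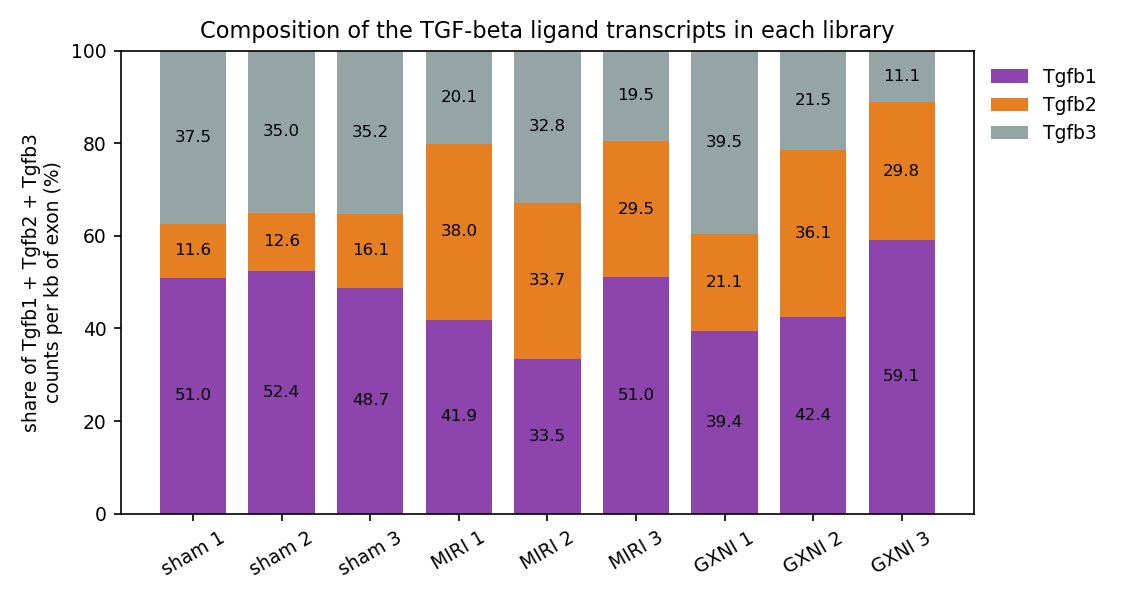
Share of Tgfb1, Tgfb2 and Tgfb3 in their summed counts per kb of exon, in percent, as stacked bars with one bar per library. The Tgfb2 segment was 11.6% to 16.1% in the sham libraries and 21.1% to 38.0% in the ligated ones.

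Ltbp2 (ENSMUSG00000002020), whose product sits in elastic fibers and microfibrils and is the family member that does not bind latent TGF-beta, maps to chr12:84783212-84876532 on the reverse strand and overlaps D030025P21Rik on the other strand. Its CPM was 3.81, 2.38 and 4.26 in sham 1 to 3, 13.4, 4.22 and 22.1 in MIRI 1 to 3, and 2.15, 11.4 and 16.7 in GXNI 1 to 3. MIRI 2 was within the sham range and GXNI 1 just below it, and the other 4 ligated hearts were above. The log2 fold change was 1.74 ± 0.66 (SE, adjusted p = 0.125 in edgeR), and it was called without GXNI 1 (log2 fold change 1.96) and by DESeq2 (1.75).

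Tgfbr1 (ENSMUSG00000007613), the type I receptor kinase, maps to chr4:47353222-47414931 on the forward strand. Its CPM was 21.3 to 24.5 in sham hearts with a median of 22.7, and 24.2 to 43.7 in ligated hearts with a median of 31.5. Only GXNI 1 among the ligated hearts fell within the sham range. The log2 fold change of 0.50 ± 0.19 (SE, adjusted p = 0.130 in edgeR) met neither threshold. Tgfbr2 (ENSMUSG00000032440), the type II receptor that binds the TGF-beta ligands, maps to chr9:116084293-116175360 on the reverse strand. Its CPM was 113, 78.1 and 88.5 in sham 1 to 3 and 81.0 to 110 in ligated hearts, with a mean of 93.2 ± 17.9 (SD, n = 3) against 97.2 ± 12.6 (n = 6). The log2 fold change was 0.06 ± 0.15 (SE, adjusted p = 0.8004 in edgeR).

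The inhibitor genes had opposite signs. Bambi (ENSMUSG00000024232) encodes a decoy receptor that resembles a type I receptor without a kinase domain, and maps to chr18:3507923-3516404 on the forward strand. Its CPM was 8.27, 14.3 and 15.9 in sham 1 to 3, 5.48, 11.1 and 5.70 in MIRI 1 to 3, and 7.49, 7.05 and 5.98 in GXNI 1 to 3. All ligated hearts but MIRI 2 were below every sham heart, and sham 1 was the lowest of its group. The log2 fold change was -0.85 ± 0.26 (SE, adjusted p = 0.0986 in edgeR). This call was the least stable. It was kept without sham 1 (log2 fold change -1.08) or MIRI 2, and lost in the fit of all 9 libraries as 3 groups (-0.85) and without any one of the other 7 libraries, with log2 fold changes of -0.66 (without sham 3) to -0.86 (without GXNI 1). The genes closest to Bambi in log2 CPM over the 9 libraries were Tmem242 (r = 0.964), Zpbp (0.962), Frk (0.961), Lamtor2 (0.957) and Fmc1 (0.956). Smad7 (ENSMUSG00000025880), the inhibitory Smad that TGF-beta itself induces, maps to chr18:75367529-75395935 on the forward strand. Its CPM was 26.0, 20.7 and 27.8 in sham 1 to 3, 32.5, 31.3 and 38.4 in MIRI 1 to 3, and 31.7, 30.5 and 44.1 in GXNI 1 to 3. Every ligated heart was above every sham heart, yet the log2 fold change of 0.48 ± 0.16 (SE, adjusted p = 0.102 in edgeR) met neither threshold. Of the 10 genes, 3 had all ligated hearts above all sham hearts (Tgfb2, Inhbb and Smad7), beside 8.40% of all genes, and 0 had them all below, beside 8.46%.

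The comparison of MIRI with sham addressed the effect of ischemia and reperfusion with saline. Here 4 of the 10 genes were called higher and 0 lower, beside 6.15% and 2.82% of 14644 genes. Tgfb2 rose by a log2 fold change of 2.69 ± 0.36 (SE, adjusted p = 0.0607 in edgeR). Inhba rose by 4.55 ± 0.83 (adjusted p = 0.0662 in edgeR) and Inhbb by 4.67 ± 1.11 (adjusted p = 0.0835 in edgeR). Tgfb3 rose by 0.71 ± 0.18 (adjusted p = 0.0865 in edgeR), with 19.8 ± 2.78 CPM (SD, n = 3) in MIRI and 12.1 ± 1.59 CPM (n = 3) in sham hearts. The Tgfb3 call was lost without any one of the 5 libraries other than MIRI 2 (log2 fold change 0.60 to 0.76) and the Inhbb call without any one sham library (4.44 to 4.98) and in the fit of all 9 libraries (4.66). Without MIRI 3 the log2 fold changes were 3.39 for Inhbb and 3.92 for Inhba, and without sham 3 that of Inhba was 5.27. Leaving out MIRI 2 raised the count of genes called over 1.5 times, to 7 higher and 1 lower, beside 16.9% and 13.3% of all genes. Tgfb1 (log2 fold change 1.55 ± 0.20), Ltbp2 (2.36 ± 0.30) and Tgfbr1 (0.64 ± 0.12) then joined the higher genes and Bambi (-1.19 ± 0.28) was lower, with adjusted p of 0.00100 to 0.0130 in edgeR for these 4.

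The GXNI libraries were set against the same 3 sham libraries. Of the 10 genes, 2 were called higher and 0 lower, beside 2.67% and 1.54% of 14695 genes. Tgfb2 rose by 2.16 ± 0.51 on the log2 scale (SE, adjusted p = 0.219 in edgeR) and Inhbb by 4.45 ± 1.26 (adjusted p = 0.219 in edgeR). Inhba had a log2 fold change of 4.51 ± 1.31 (adjusted p = 0.219 in edgeR). Without GXNI 3 and MIRI 2, 2 genes were again called higher and 0 lower, with 2.11% of all 15007 genes called higher and 219 of them lower. The log2 fold changes were then 1.69 ± 0.45 for Tgfb2 and 1.95 ± 0.44 for Inhbb, so the size of the Inhbb difference rested on GXNI 3. Inhba then had a log2 fold change of 2.31 and Tgfb1 of 0.23, beside 1.02 ± 0.50 (SE) for Tgfb1 with all libraries, and without sham 3 that of Inhba was 5.24. The Tgfb2 call was lost without sham 1 (log2 fold change 1.95), sham 2 (2.17) or GXNI 2 (2.12), and the Inhbb call without any one sham library (4.23 to 4.76). Without GXNI 1, edgeR called Inhba (log2 fold change 5.06), Ltbp2 (2.02), Tgfb1 (1.38) and Tgfbr1 (0.70) higher as well. Calls then rose over the whole genome too, to 1603 higher and 1062 lower of 14990 genes. The added calls were therefore not particular to these genes. Without sham 1, edgeR called Bambi lower (-1.14).

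**Figure D3:**
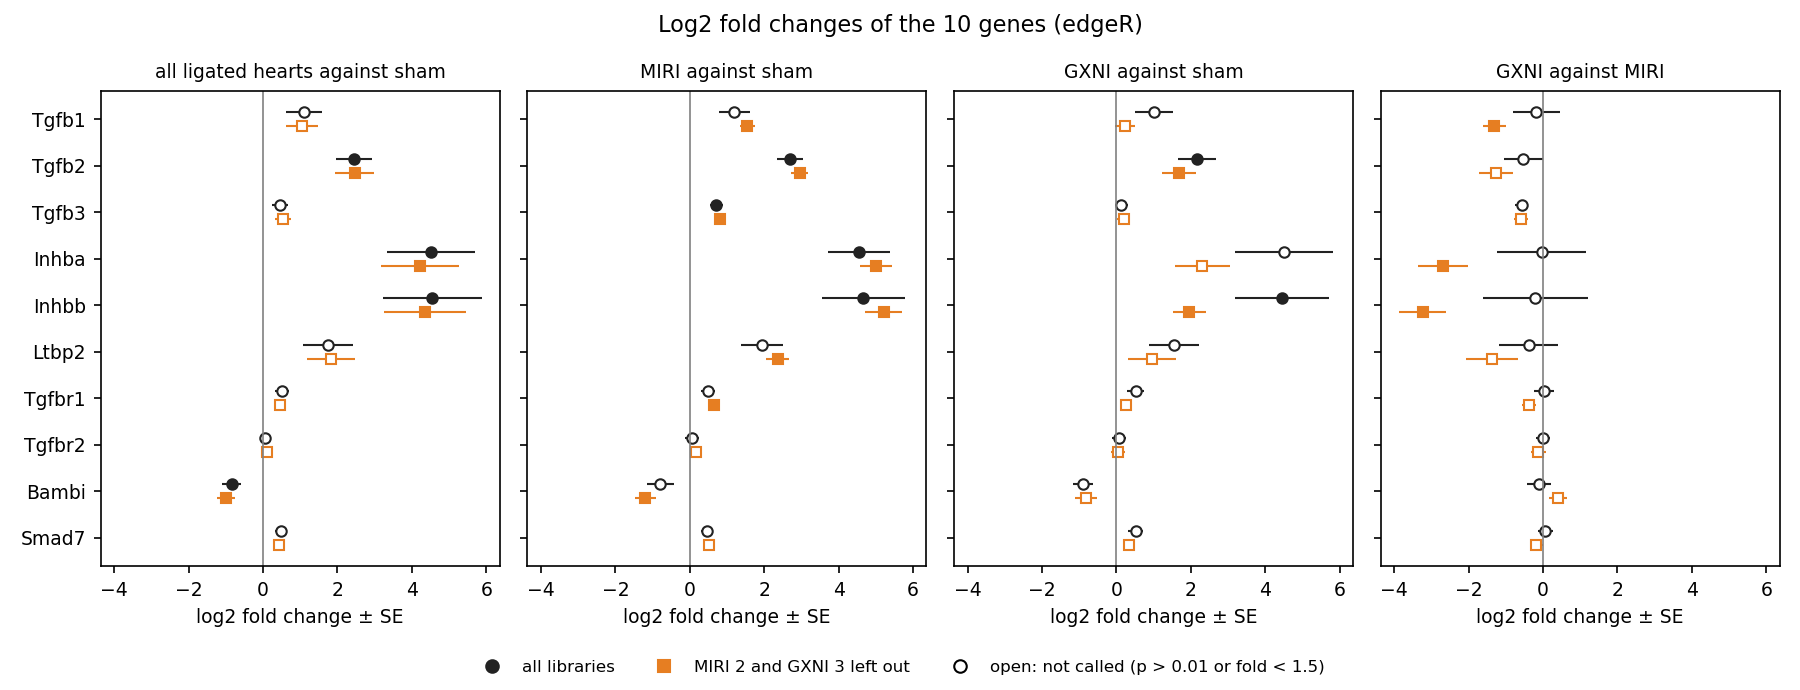
Log2 fold changes with standard errors of the 10 genes in 4 comparisons, from all libraries (circles) and without MIRI 2 and GXNI 3 (squares). Filled symbols were called and open ones were not. In GXNI against MIRI the circles of Inhba and Inhbb lay near 0, at -0.03 and -0.21, and the squares at -2.69 and -3.24.

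For the question of what the injection changed in ligated hearts, GXNI was compared with MIRI. By the deposited labels edgeR and DESeq2 each called 0 of the 10 genes, beside 0 genes higher and 0.0203% lower of the 14762 tested in edgeR. In either tool 1 of the 10 had an unadjusted p under 0.05, which in edgeR was Tgfb3. Beside this stood 0.318% of all genes tested in edgeR and 0.324% of the 28128 genes with any count in DESeq2. Tgfb3 ran from 11.8 to 14.7 CPM in GXNI and from 17.04 to 22.6 CPM in MIRI, with a log2 fold change of -0.58 ± 0.19 (SE, adjusted p = 1 in edgeR). The share of all genes whose ranges were apart in this comparison is not reported here, so this is not shown to be particular to Tgfb3. For Tgfb2 the means were 35.0 ± 20.7 CPM in GXNI and 50.7 ± 18.1 CPM in MIRI (SD, n = 3 each), and the log2 fold change was -0.53 ± 0.52 (SE, adjusted p = 1 in edgeR). The standard error for Inhbb was 1.40 on the log2 scale, so that differences of several fold were not detectable with these libraries.

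Without MIRI 2 and GXNI 3, 2 libraries remained on each side. Of the 10 genes, 3 were then called lower in GXNI and 0 higher, beside 3.47% and 1.52% of 14984 genes. Inhbb had a log2 fold change of -3.24 ± 0.64 (SE), Inhba of -2.69 ± 0.66 and Tgfb1 of -1.31 ± 0.32, each with an adjusted p of 0.188 or 0.189 in edgeR. Tgfb3 was at -0.60 ± 0.19, near its value with all libraries. Neither library alone gave this result, since 0 of the 10 genes were called when any single library was left out. The calls of the activin genes in this comparison depended on whether these libraries were included.

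The branch was put beside 71 other genes of the pathway, grouped by role, of which 61 passed the filter in all ligated hearts against sham. Of these, 11 were called higher and 1 lower, beside 5.52% and 2.85% of all genes, and their median log2 fold change was 0.325. Without MIRI 2 and GXNI 3, 14 were called higher and 2 lower of 60, beside 6.60% and 3.24% of all genes. Among 13 genes of latency, storage and activation, 3 rose. Thbs1, encoding thrombospondin-1, which can release TGF-beta from its latent form, had the largest log2 fold change of the list, 6.33 ± 1.46 (SE), and ran from 2.92 to 7.09 CPM in sham hearts and from 20.9 to 998 CPM in ligated hearts. Fbn1, encoding the microfibril protein fibrillin-1, rose by 1.08 ± 0.13 (adjusted p = 0.0220 in edgeR), the only gene of the list or of the 10 with an adjusted p under 0.05 in this fit, where DESeq2 gave 18 of 68 listed genes one. Its CPM was 64.4 to 68.4 in sham hearts and 124 to 159 in ligated hearts, MIRI 2 and GXNI 1 included at 124 and 126. Emilin1, an elastic fiber protein that limits TGF-beta processing, rose by 0.73 ± 0.18.

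Of 7 tested ligands from other branches, 1 rose and 1 fell. Gdf15, a stress-induced ligand, rose by 4.76 ± 1.39 on the log2 scale. Bmp7, which opposes TGF-beta signalling in several tissues, fell by 1.77 on that scale (SE 0.38), from 1.29 to 1.78 CPM in sham to 0.232 to 0.799 CPM in ligated hearts, with counts of only 4 to 16 in the latter. None of the 9 tested receptors and co-receptors was called. The largest change among them was Acvr2b, an activin type II receptor, at -0.84 ± 0.29 (adjusted p = 0.108 in edgeR, called without sham 2 or GXNI 1 and by DESeq2). None of the 6 Smads was called, with Smad1 at 0.85 ± 0.31 (adjusted p = 0.117 in edgeR, called without MIRI 2, without MIRI 2 and GXNI 3 together, with the replicate block and by DESeq2).

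Of 13 tested inhibitor and feedback genes, 3 rose and 0 fell. Fstl3, a secreted protein that binds activin, rose by 2.94 ± 0.65 on the log2 scale, from 1.97 to 2.63 CPM in sham hearts to 2.996 to 31.8 CPM in ligated hearts. Pmepa1, a TGF-beta-induced brake on Smad signalling, rose by 1.28 ± 0.33 and Skil, encoding the Smad corepressor SnoN, by 0.91 ± 0.22. Among 13 targets, 4 rose, among them Ccn2 (3.47 ± 0.63), Timp1 (2.98 ± 0.70) and Fn1 (1.99 ± 0.57). These encode connective tissue growth factor, a metalloproteinase inhibitor and fibronectin. The fibrillar collagen genes were not called, with log2 fold changes of -0.09 ± 0.34 for Col1a1 and -0.13 ± 0.42 for Col3a1. These 2 collagens were named after their values were seen. Leaving out single libraries ended the calls of Gdf15 (6 of the 9 libraries, log2 fold change 4.37 to 5.10), Fn1 (5 libraries, 1.90 to 2.06), Pmepa1 (each sham library, 1.24 to 1.31), Emilin1 (sham 1 or 2, 0.73 and 0.65) and Skil (sham 2, 0.81), while those of Thbs1, Fbn1, Fstl3, Ccn2, Timp1 and Bmp7 were kept.

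**Figure D4:**
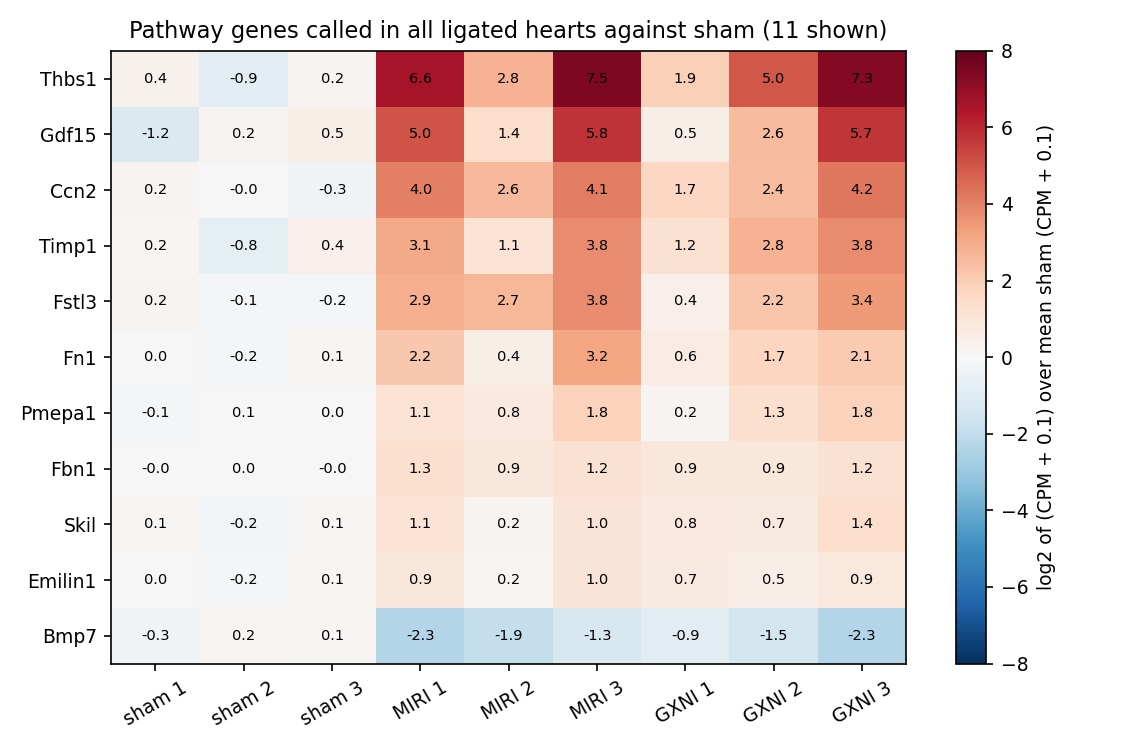
Log2 ratio of CPM plus 0.1 to the mean of the 3 sham libraries, for 11 of the 12 pathway genes called in all ligated hearts against sham (rows) in each library (columns). Thbs1, Gdf15, Ccn2, Timp1, Fstl3 and Fn1 had their highest ratios in MIRI 1, MIRI 3 and GXNI 3, Fbn1 was at 0.90 to 1.26 in all 6 ligated hearts, and Bmp7 was below 0 in all 6.

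The other comparisons of the 71 genes gave 11 higher and 1 lower of 60 in MIRI against sham, beside 6.15% and 2.82% of all genes, and 8 higher and 1 lower of 60 in GXNI against sham, beside 2.67% and 1.54%. In GXNI against MIRI edgeR and DESeq2 each called 0, with 2 genes at an unadjusted p under 0.05 in either tool. The MIRI calls added the myofibroblast genes Acta2 and Postn to the targets and did not include Skil or Emilin1. Those of GXNI against sham held Fbn1, Emilin1, Thbs1, Skil, Fstl3, Ccn2, Timp1 and Fn1, with Bmp7 lower. These comparisons share the sham libraries, and the difference between them was tested only by GXNI against MIRI. Without MIRI 2 and GXNI 3 that comparison called 8 of 61 pathway genes lower and 1 higher, beside 3.47% and 1.52% of all genes.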

How the data were processed

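Reads with adapter or poly-N and those of low quality were discarded by the authors, who aligned the remainder to the mouse genome (HISAT2) and assigned them to genes (featureCounts, Subread). The build was mm10 per the labels, and versions, annotation and strand setting are not given in the sources used here. The deposited values are raw whole-number counts for 54532 gene identifiers, of which 54495 were matched to GENCODE M21 symbols. 0 columns of other samples were present. The study gives 3 separate mice per group.

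Each comparison was fitted on its own libraries with edgeR 4.0.16 in R 4.3.3 (TMM, default filter on low counts, quasi-likelihood F test, no covariates). A call needed a 1.5-fold change and p no higher than 0.01 before adjustment, as in the study. SE is the log2 fold change divided by the square root of F. The correlations used log2 CPM with a prior count of 0.5. Alternatives were DESeq2 1.42.0, RLE normalization, no filter, all 9 libraries in 1 fit, a replicate block, adjusted p, and libraries left out. The edgeR step was run on simulated counts with the same dispersion for every gene. That setting is simpler than the uneven ligated groups here, so it does not measure the error of calls in them. No libraries agreed within sampling noise (smallest chi-square per degree of freedom 13.2, sham 2 and sham 3). Replicate numbers come from the labels. The text names all 10 genes, the pathway genes called in all ligated hearts against sham (1 of them is counted but not reported here), the most changed gene of each role and, after their values were seen, Col1a1 and Col3a1. Genes and lists were chosen with earlier results of these data known. Promoters came from RefSeq, with entries for 7 of the 10 genes.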

Additional observations from a re-analysis of the deposited data

Results flagged for a closer look

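Among the 6 ligated hearts the Bambi level of MIRI 2, 11.1 CPM, stood apart from the others, which ran from 5.48 to 7.49 CPM. The gap to the next library was 0.642 of the whole range, above Dixon's critical value for 6 samples. Chance alone gives such a gap in about 1 in 20 groups, and it was found in 1 of 12 values examined. MIRI 2 also stood apart in its overall profile.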

How the results depend on the processing

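At an adjusted p of at most 0.05 edgeR called 0 of the 10 genes in each comparison. The pathway genes called then numbered 0 in MIRI against sham, 0 in GXNI against sham and 1 in all ligated hearts against sham, and all genes called numbered 2, 0, 9 and, in GXNI against MIRI, 0. The next counts are for MIRI against sham, GXNI against sham, GXNI against MIRI and all ligated hearts against sham, in this order. DESeq2 gave such an adjusted p to 6, 3, 0 and 5 of the 10 genes and to 2025, 834, 0 and 2170 of all genes. edgeR without a filter gave it to 4, 0, 0 and 1 of the 10 and to 1124, 18, 0 and 100 of all genes. In both, all genes numbered 27901, 27966, 28128 and 29344. The other counts that moved by over 1.5 times were these. In MIRI against sham (4 of the 10 genes, 12 pathway genes and 1313 genes called), DESeq2 called 19 pathway genes and 2251 genes, the fit without a filter 22 and 2406, the fit of all 9 libraries 800 genes, and the fit without MIRI 2 and GXNI 3 called 8, 30 and 4592. In GXNI against sham (2, 9 and 618), DESeq2 called 4, 15 and 1401 and the fit without a filter 4, 17 and 1425. In GXNI against MIRI (0, 0 and 3), DESeq2 called 11 genes, the fit without a filter 10, the fit of all 9 libraries 1 of the 10 genes (Tgfb3) and 9 genes, and the fit without MIRI 2 and GXNI 3 called 3, 9 and 748. In all ligated hearts against sham (4, 12 and 1274), DESeq2 called 19 pathway genes and 2196 genes, and the fit of all 9 libraries called 2 of the 10 genes, beside 1002 of all genes. Leaving out each library in turn gave 2 to 8, 7 to 30 and 514 to 4592 calls in MIRI against sham, 0 to 6, 2 to 21 and 175 to 2665 in GXNI against sham, 0 to 0, 0 to 0 and 1 to 12 in GXNI against MIRI, and 1 to 4, 7 to 19 and 463 to 2298 in all ligated hearts against sham. The difference in Inhba share then ran from -2.31 to 10.2 percentage points and that in Tgfb1 share from -9.03 to -3.91. The cause of these moves was not tested.

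The replicate numbers did not pair the libraries (correlation of same-numbered deviations between GXNI and MIRI -0.443, 0.126 and 0.701). With the replicate block, 4 of the 10 genes were called in MIRI against sham, where Tgfb3 (log2 fold change 0.71) lost its call and Ltbp2 (1.71) gained one, 2 in GXNI against sham, where Inhbb (3.20) lost its call and Inhba (3.71) gained one, 0 in GXNI against MIRI, with 1 pathway gene, and 4 in all ligated hearts against sham. Over all genes, the block called 698 higher and 367 lower of 14644 in MIRI against sham and 342 and 231 of 14695 in GXNI against sham. In GXNI against MIRI it called 2 and 1 of 14762, and in all ligated hearts against sham 901 and 600 of 15207. Inhbb was then at 3.56 in all ligated hearts and 3.80 in MIRI against sham.

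Signs reversed only for values that were not called. In GXNI against MIRI without MIRI 2 and GXNI 3 these were Tgfbr2 at -0.13, Tgfbr1 at -0.38, Smad7 at -0.18 and Bambi at 0.39. Tgfbr2 was at -0.0025 with DESeq2 and -0.0007 with all 9 libraries. Leaving out single libraries there gave -0.10 to 0.12 for Tgfbr2, -2.70 to 1.05 for Inhbb, -0.23 to 0.21 for Tgfbr1, -0.13 to 0.16 for Smad7, -0.96 to 0.24 for Tgfb1, -2.23 to 0.58 for Inhba, -0.29 to 0.30 for Bambi and -0.96 to 0.18 for Ltbp2. Against sham it gave -0.055 to 0.22 for Tgfbr2 in MIRI, -0.048 to 0.23 in GXNI and -0.057 to 0.22 in all ligated hearts. The Tgfb2 share, whose alternatives were added after the data were seen, differed by 16.6 to 20.1 percentage points under all of them.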
